A study of Homo sapiens with 6 samples.

Results

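The genes of cholesterol and fatty acid synthesis that answer to the sterol regulatory element-binding proteins (SREBPs) were examined in NALM6 cells, a cell line derived from the leukemic B cell precursors of a patient. The 32 genes were taken from a list of pathway enzymes and regulators, and 31 of them were matched to a row of the count table, which holds 57905 genes. ACACA, the acetyl-CoA carboxylase that makes malonyl-CoA, was not matched, because its identifier in the annotation used here is not a row of that table, and it was not analysed. All 31 matched genes passed the filter on low counts, which left 16622 genes for testing. RNA was sequenced from 3 libraries of cells treated with DMSO, the solvent, and 3 libraries of cells treated with 500 nM of THZ1, a covalent inhibitor of the kinase CDK7, each for 24 h. The study's statement on statistics speaks of independent experiments in general, and no source used here says of the sequenced libraries whether they came from separate cultures, so the p-values measure the spread between these libraries, which may be technical. All libraries come from 1 cell line.

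Cells make cholesterol from acetyl-CoA through mevalonate, isoprenoid diphosphates, squalene and lanosterol, and they make fatty acids from the same acetyl-CoA through malonyl-CoA. The transcription factors SREBP1 and SREBP2, the products of SREBF1 and SREBF2, are made as membrane proteins of the endoplasmic reticulum and bound there to SCAP, which escorts them to the Golgi for cleavage when sterols are scarce. INSIG1 and INSIG2 hold SCAP back when sterols are plentiful. The released amino-terminal part of an SREBP enters the nucleus and binds sterol regulatory elements near its target genes, often beside the factors NF-Y, which recognises CCAAT boxes, and SP1, which recognises GC boxes. Most of the enzymes below, INSIG1 and SREBF2 itself are known SREBP targets.

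With THZ1, 22 of the 31 genes were lower, 7 were higher and 2 were not called, at a Benjamini-Hochberg adjusted p-value below 0.05 in edgeR's quasi-likelihood fit of all genes that passed the filter. Among all genes tested, 41.1% were lower and 43.5% higher, so 71.0% of the lipid synthesis genes were called lower against 41.1% of all genes. Their median log2 fold change was −0.65, and the median over all genes tested was 0.03. Restricted to protein-coding genes with a mean of 10 or more CPM (the share of a library's counts scaled to a fixed library size), of which there were 8972, 52.6% were lower and 33.2% higher, with a median log2 fold change of −0.28. INSIG1 fell most and SCD, the stearoyl-CoA desaturase, and TM7SF2, a sterol reductase, rose most among genes above 10 CPM. When a change of 1.5 or more on the log2 scale was also required, 1 of the 31 genes was lower, INSIG1, and 2 were higher, TM7SF2 and CYP51A1, against 12.9% of all genes lower and 24.6% higher by this rule. NSDHL, at −1.49, and SCD, at 1.43, fell just short of this limit, and NSDHL passed it when DMSO replicate 1, DMSO replicate 2 or THZ1 replicate 3 was left out, with −1.56, −1.55 and −1.53, and with library sizes alone (−1.74) or no filter (−1.58). SCD passed it with RLE factors (1.501), upper quartile factors (1.63), DESeq2 (1.502) and a minimum of 10 counts in each library (1.57). CYP51A1 had only 11 to 13 counts in the DMSO-treated libraries, and its call was lost in the deposited FPKM values (levels per transcript length).

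The promoters of the genes that fell and rose most are shown first, because these sequences can be compared with the known binding letters of SREBP, NF-Y and SP1. They were chosen among called genes whose mean reached 10 CPM, and each is the stretch of 250 bases before the RefSeq start of the gene, 5′ to 3′ on its own strand, with coordinates on GRCh38.p14. Capitals mark matches, on either strand, to the CCAAT box (CCAAT), the GC box (GGGCGG), the E-box (CACGTG) and the TATA box (TATAAA). INSIG1 and NSDHL had the lowest log2 fold changes of the genes considered, and TM7SF2 and SCD the highest.
INSIG1, chr7:155297628-155297877, plus strand: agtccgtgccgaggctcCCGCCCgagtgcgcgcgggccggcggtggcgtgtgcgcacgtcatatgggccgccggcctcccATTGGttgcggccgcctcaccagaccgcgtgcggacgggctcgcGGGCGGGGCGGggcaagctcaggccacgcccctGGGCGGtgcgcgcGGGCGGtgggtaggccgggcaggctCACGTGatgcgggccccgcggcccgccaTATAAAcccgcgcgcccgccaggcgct
NSDHL, chrX:152830813-152831062, plus strand: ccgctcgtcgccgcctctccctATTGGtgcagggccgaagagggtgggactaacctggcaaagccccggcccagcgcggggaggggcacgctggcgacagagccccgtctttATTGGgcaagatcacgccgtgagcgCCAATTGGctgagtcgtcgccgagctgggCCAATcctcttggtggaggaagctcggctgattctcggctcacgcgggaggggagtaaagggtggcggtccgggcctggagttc
TM7SF2, chr11:65111622-65111871, plus strand: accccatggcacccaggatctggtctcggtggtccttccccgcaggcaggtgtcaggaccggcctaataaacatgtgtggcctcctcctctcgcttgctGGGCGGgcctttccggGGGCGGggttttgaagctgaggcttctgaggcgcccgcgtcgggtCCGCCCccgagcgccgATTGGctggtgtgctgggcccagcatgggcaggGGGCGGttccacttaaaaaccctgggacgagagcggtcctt
SCD, chr10:100346983-100347232, plus strand: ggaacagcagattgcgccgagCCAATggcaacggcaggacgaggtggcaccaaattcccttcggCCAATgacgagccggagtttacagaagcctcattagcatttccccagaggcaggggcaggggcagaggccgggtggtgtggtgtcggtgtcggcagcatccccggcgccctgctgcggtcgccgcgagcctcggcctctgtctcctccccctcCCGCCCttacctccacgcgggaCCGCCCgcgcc

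INSIG1 held 1 CCAAT box, 5 GC boxes, 1 E-box and 1 TATA box in this stretch, and 2 of its GC boxes overlapped. NSDHL held 5 CCAAT boxes, of which 2 on opposite strands overlapped, and no GC box. TM7SF2 held 1 CCAAT box and 4 GC boxes, and SCD held 2 of each. RefSeq windows of 300 bases, which add 50 bases after the start, were given for 27 of the 31 genes, but not for FDFT1, SQLE, ACAT2 and FASN. A CCAAT box was found in 20 of these 27 genes (74.1%), against 42.4% of the 10713 tested genes with a window, and in 39.7% of all 27305 genes with a window. A GC box was present in 26 of 27 (96.3%), against 75.5% of tested genes and 48.3% of all. The CCAAT box was found in 14 of the 19 genes that fell and 5 of the 6 that rose. The E-box was found in 4 of the 19 genes that fell (LSS, SC5D, INSIG1 and SCAP) and in none of the 6 that rose, against 12.5% of tested genes and 8.77% of all. The TATA box was found in 2 of 27, HMGCS1 and INSIG1, against 8.13% of tested genes. The letters TCACNCCAC, the core of the classical sterol regulatory element, were found only in the window of SREBF2, 1 of 27 genes (3.70%), against 1.53% of tested genes and 1.39% of all. Both strands were searched for each motif, matches of different motifs overlapped in none of the 36 windows of these genes, and a match describes letters, not a bound site.

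**Figure D1:**
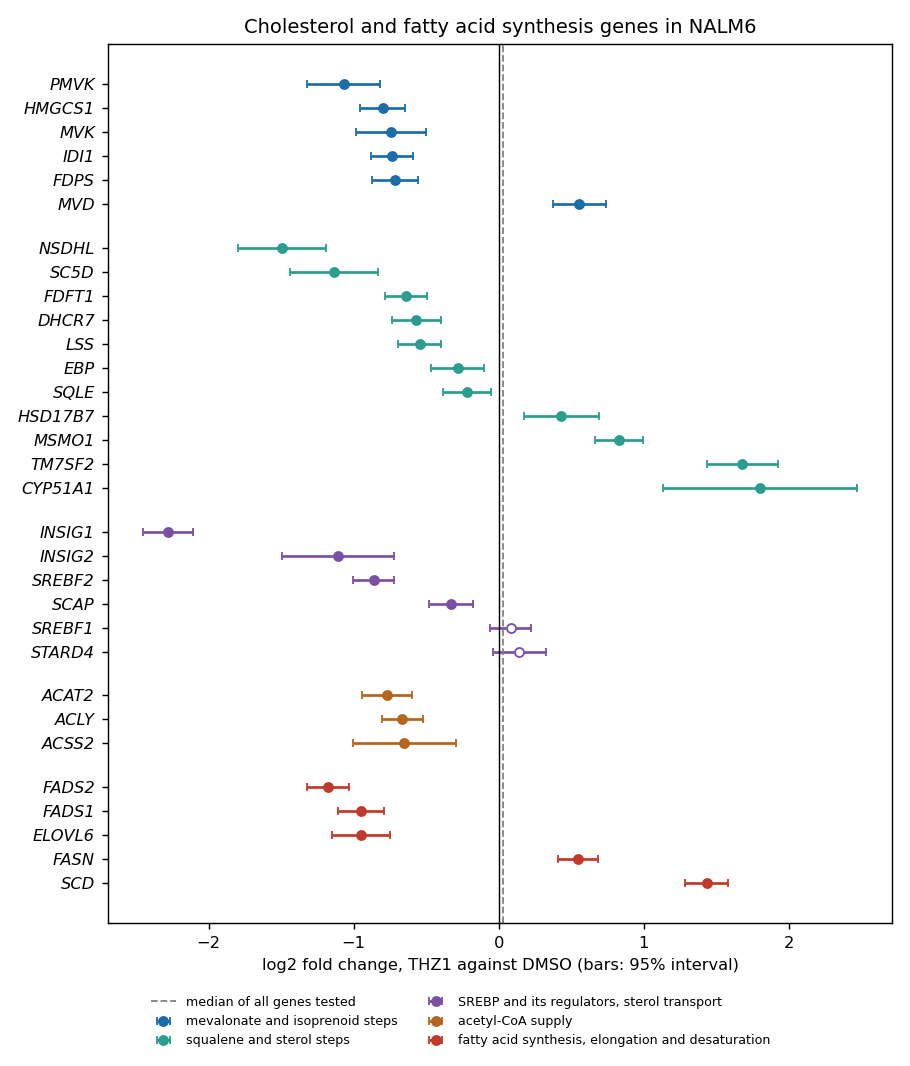
Log2 fold change of the 31 genes with THZ1 against DMSO (x axis), grouped by step of the pathway, with bars for the 95% interval and open circles for genes that were not called. Of the 31 points, 22 filled ones lie left of 0, from INSIG1 at −2.28 to SQLE at −0.22, and 7 lie right of it, while the dashed line at 0.03 is the median of all genes tested.

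Before each gene is described, some facts of the libraries bear on all of them. The DMSO-treated libraries held 11015480 to 11164840 counts and the THZ1-treated libraries 7876402 to 8314306, and every DMSO-treated library was deeper. Counts of 3, taken as the floor, equal up to 0.253 CPM with DMSO and up to 0.415 CPM with THZ1, for counting error only. The single most counted gene took 1.09% to 1.11% of the counts with DMSO and 3.47% to 3.66% with THZ1. Levels are therefore given as CPM after TMM scaling, a scaling that takes the bulk of genes to be stable. Here 43.5% of all genes tested were called higher and 41.1% lower, and whether that assumption holds was not tested. No reference RNA added in known amount is described in the sources used here. Rises and falls below are therefore relative to the other RNA of a library, not amounts per cell. In bulk RNA, fewer cells of a type and less RNA per cell cannot be told apart. All 10 markers of B cell precursors were detected, and summed to 3650 to 3670 CPM by library size with DMSO and 1460 to 1490 CPM with THZ1. They did not move as one, since 8 were lower and 2 higher, CD79A at 1.33 and RAG1 at 0.19 on the log2 scale. Of the other cell types, the 5 T cell markers summed to at most 0.889 CPM, the 5 myeloid markers to 4.12 to 5.08 with DMSO and 17.0 to 18.3 with THZ1, and the 5 hepatocyte and adipocyte markers to 5.17 to 15.3 and 6.37 to 7.56. Of the 4 myeloid markers tested, CSF1R (5.63) and CD14 (3.75) were higher, LYZ (−0.83) was lower and MPO was not called. The part of these shifts in the results below was not tested.

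Of the 6 regulators, 4 were lower (66.7%), none was higher and 2 were not called. The shares among protein-coding genes with a mean of 10 or more CPM were 52.6% lower and 33.2% higher. With upper quartile factors, 3 of the 6 regulators were lower and 2 higher. INSIG1, the retention factor that SREBPs themselves induce, lies on chromosome 7 from 155089486 to 155101945 (GRCh37). It had 145, 145 and 142 CPM in the 3 DMSO-treated libraries and 29.3, 31.8 and 27.8 CPM in the 3 THZ1-treated libraries. The libraries of each treatment lay within a few CPM of each other, and the groups were far apart. INSIG1 fell 4.86-fold (log2 fold change −2.28, standard error 0.08, adjusted p = 1.8e-21 by edgeR), and 4.55% of all genes tested had a lower value. Its paralog INSIG2 was less abundant, with 14.6, 15.4 and 11.7 CPM with DMSO and 7.10, 8.31 and 4.01 CPM with THZ1. INSIG2 fell too, by 1.11 on the log2 scale (standard error 0.19, adjusted p = 3.5e-06 by edgeR). Within each library, there were 9.94, 9.38 and 12.1 counts of INSIG1 for each count of INSIG2 with DMSO, and 4.13, 3.83 and 6.93 with THZ1. This ratio needs no scaling between libraries, and its groups did not overlap.

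SREBF2, which drives mainly the sterol genes, and SREBF1, which drives mainly the fatty acid genes, are taken next. SREBF2, on chromosome 22 from 42229109 to 42303310, had 271, 279.9 and 252 CPM with DMSO and 144, 151 and 147 CPM with THZ1, so that no THZ1-treated library came near the lowest DMSO-treated library. SREBF2 fell by 0.86 on the log2 scale (standard error 0.07, adjusted p = 5.4e-13 by edgeR). SREBF1, on chromosome 17 from 17713713 to 17740316, had 237, 211 and 242 CPM with DMSO and 241, 243 and 246 CPM with THZ1, and the groups overlapped. SREBF1 was not called, with a log2 fold change of 0.08 and a 95% interval from −0.06 to 0.22 (adjusted p = 0.26 by edgeR). That sign depended on the scaling, since the log2 fold change of SREBF1 was −0.16 with library sizes alone and 0.28 with upper quartile factors, both past the threshold (adjusted p = 0.0215 and 0.000487 by edgeR). SREBF1 was also called higher with RLE factors, at 0.15 (adjusted p = 0.0466 by edgeR). The number of SREBF1 counts for each SREBF2 count was 0.873, 0.753 and 0.957 with DMSO and 1.67, 1.61 and 1.67 with THZ1. SREBF1 thus went from below SREBF2 to above it in every library, a change in relative counts that no scaling of libraries alters. The isoforms of SREBF1 cannot be told apart in counts per gene.

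SCAP, the escort of both SREBPs, fell slightly, from 104 ± 2.89 CPM to 83.2 ± 3.15 CPM (SD, n = 3 libraries each, log2 fold change −0.33, adjusted p = 0.00019 by edgeR). The SCAP call was lost with upper quartile factors, at −0.13 and an adjusted p of 0.0978 by edgeR. STARD4, a soluble carrier that moves cholesterol between membranes, had 45.6, 53.4 and 45.9 CPM with DMSO and 53.4, 55.0 and 51.6 CPM with THZ1. Its groups overlapped, and it was not called, with a log2 fold change of 0.14 and a 95% interval from −0.04 to 0.32 (adjusted p = 0.14 by edgeR). STARD4 was called higher under 4 of the 16 alternatives, among them RLE factors (0.21), upper quartile factors (0.34) and the fit without DMSO replicate 2 (0.20). It was at −0.11 with library sizes alone.

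**Figure D2:**
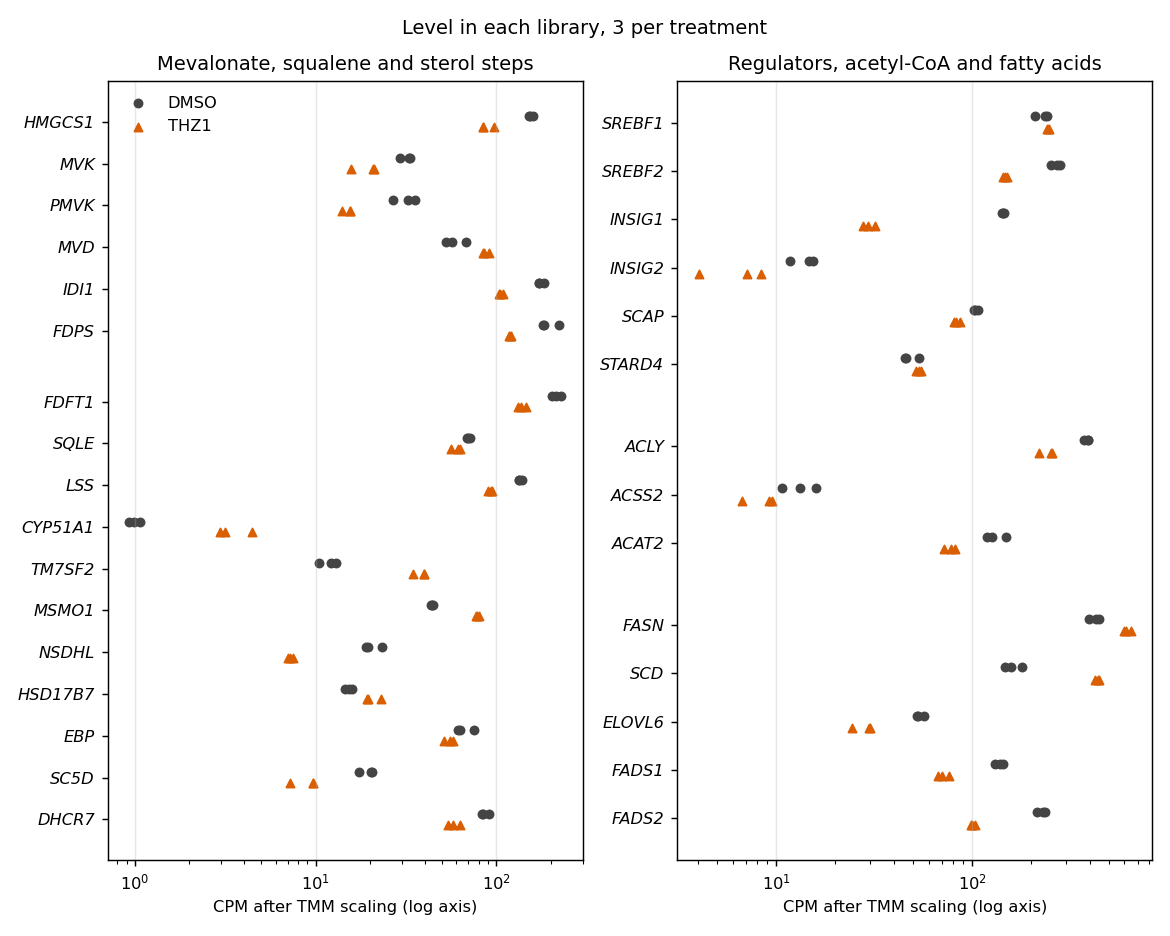
Level of each gene in each of the 6 libraries, in CPM after TMM scaling on a log axis, with circles for DMSO and triangles for THZ1. The 3 libraries of a treatment lie close together for most genes, and the symbols of the treatments overlap for SREBF1 and STARD4 only.

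In 29 of the 31 genes (93.5%) the CPM of the treatments were fully separate, as they were in 84.7% of all genes tested. The early, mevalonate part of the pathway was lower at 5 of its 6 genes (83.3%). The share of lower genes was 52.6% among protein-coding genes with a mean of 10 or more CPM. HMGCS1, the cytosolic synthase that makes HMG-CoA, had 151, 159 and 153 CPM with DMSO and 96.9, 83.9 and 84.5 CPM with THZ1 (log2 fold change −0.80, adjusted p = 2.5e-11 by edgeR). ENSG00000261604 covers 37.7% of the exonic bases of HMGCS1 on the opposite strand, so without a stated strand setting some reads could be shared. MVK and PMVK add phosphates to mevalonate in turn. MVK fell from 31.9 ± 2.27 to 19.1 ± 2.96 CPM (SD, n = 3 libraries each), and PMVK went from 32.4, 26.9 and 35.2 CPM to 15.5, 13.98 and 15.5 CPM. PMVK had the lowest log2 fold change of this group, −1.07 (standard error 0.12). IDI1, which isomerises isopentenyl diphosphate, fell by 0.73 on the log2 scale, and FDPS, which makes farnesyl diphosphate, fell by 0.71. In both, the lowest DMSO-treated library, with 171 CPM for IDI1 and 180.2 CPM for FDPS, was well above the highest THZ1-treated library, with 109 and 121 CPM.

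MVD, the decarboxylase between PMVK and IDI1, went the other way. It had 56.5, 52.4 and 67.9 CPM with DMSO and 90.9, 85.1 and 84.0 CPM with THZ1. The groups were separate although DMSO replicate 3 stood above the other DMSO-treated libraries. MVD rose by 0.56 on the log2 scale (standard error 0.09, adjusted p = 9.3e-07 by edgeR), and remained higher with library sizes alone, at 0.31. There were 1.74, 1.95 and 1.93 MVD counts for each PMVK count with DMSO, and 5.86, 6.09 and 5.41 with THZ1.

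Along the squalene and sterol steps, 7 of 11 genes were lower (63.6%) and 4 higher (36.4%), and genes of neighbouring reactions differed. These shares were near the 52.6% lower and 33.2% higher among protein-coding genes with a mean of 10 or more CPM. The genes of the first steps were lower. FDFT1, squalene synthase, had 214, 202 and 229 CPM with DMSO and 137, 131 and 146 CPM with THZ1 (log2 fold change −0.64, adjusted p = 1.3e-09 by edgeR). SQLE, squalene epoxidase, a slow step of the pathway, had 69.8, 68.9 and 71.0 CPM with DMSO and 56.2, 62.4 and 61.6 CPM with THZ1. The difference for SQLE was small, −0.22 on the log2 scale (adjusted p = 0.015 by edgeR). It was not past the threshold under 5 of the 16 alternatives, among them upper quartile factors (−0.02), RLE factors (−0.15) and the fit without THZ1 replicate 1 (−0.18). LSS, which closes squalene epoxide into lanosterol, fell from 135 ± 2.48 to 92.6 ± 2.36 CPM (SD, n = 3 each, log2 fold change −0.54).

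Neighbouring enzymes that remove methyl groups from lanosterol moved in opposite directions. MSMO1, the methylsterol oxidase on chromosome 4 from 166248819 to 166264316, had 43.2, 44.3 and 44.1 CPM with DMSO and 77.6, 79.7 and 77.0 CPM with THZ1. The replicates of MSMO1 differed by less than 3 CPM, and it rose 1.78-fold (log2 fold change 0.83, standard error 0.08, adjusted p = 6.2e-11 by edgeR). NSDHL, the dehydrogenase that follows MSMO1 in the same demethylation, had 18.9, 19.3 and 23.1 CPM with DMSO and 7.23, 7.06 and 7.49 CPM with THZ1. NSDHL fell 2.81-fold (log2 fold change −1.49, standard error 0.15, adjusted p = 1.0e-10 by edgeR). HSD17B7, the ketosteroid reductase that completes the cycle, had 15.8, 14.5 and 15.4 CPM with DMSO and 19.2, 19.4 and 23.0 CPM with THZ1. HSD17B7 was called higher at 0.43 (adjusted p = 0.0024 by edgeR), but the call was lost in the deposited FPKM values (0.08) and when only library sizes were used (0.18).

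TM7SF2, which reduces the bond left in the ring by CYP51A1, lies on chromosome 11 from 64879317 to 64883856. It had 13.0, 10.4 and 12.2 CPM with DMSO and 34.5, 39.9 and 39.7 CPM with THZ1, and the lowest THZ1-treated library was far above the highest DMSO-treated one. TM7SF2 rose 3.21-fold (log2 fold change 1.68, standard error 0.12, adjusted p = 3.0e-14 by edgeR). LBR, the other enzyme with this reductase activity and no member of the list, fell from 253 ± 9.05 to 182 ± 4.70 CPM (log2 fold change −0.48, adjusted p = 1.1e-07 by edgeR). For each LSS count there were 0.0974, 0.0777 and 0.0881 counts of TM7SF2 with DMSO and 0.372, 0.420 and 0.440 with THZ1.

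CYP51A1, the lanosterol demethylase, had few counts. It had 12, 13 and 11 counts with DMSO and 24, 32 and 22 with THZ1, or 0.995 ± 0.0687 and 3.51 ± 0.805 CPM. In the annotation used here, other genes on the same strand cover 68.2% of its exonic bases, the highest share among the 31 genes. The fitted log2 fold change of CYP51A1 was 1.80 (standard error 0.33, adjusted p = 8.7e-06 by edgeR), while the deposited FPKM values were 1.43 ± 0.0205 with DMSO and 1.59 ± 0.451 with THZ1 and gave no call (log2 fold change 0.08, adjusted p = 0.611 by limma).

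The genes of the last steps to cholesterol were lower. SC5D, the desaturase, had 17.4, 20.3 and 20.6 CPM with DMSO and 7.23, 9.69 and 9.63 CPM with THZ1 (log2 fold change −1.14, adjusted p = 2.8e-08 by edgeR). DHCR7, the reductase that makes cholesterol from its last precursor, fell from 86.3 ± 3.95 to 58.2 ± 4.59 CPM (log2 fold change −0.57). EBP, the isomerase before them, had 62.5, 61.6 and 75.1 CPM with DMSO and 55.0, 51.5 and 57.2 CPM with THZ1. Its fall by 0.28 on the log2 scale (adjusted p = 0.0046 by edgeR) was not past the threshold under 3 of the 16 alternatives, among them upper quartile factors (−0.09) and DESeq2 (−0.22). On the same strand, ENSG00000286268 covers 36.4% of the exonic bases of EBP.

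All 3 genes of acetyl-CoA supply were lower, beside 52.6% of protein-coding genes with a mean of 10 or more CPM. ACLY, which splits citrate in the cytosol, was the most abundant gene of the list per length with DMSO, and had 391, 393 and 374 CPM with DMSO and 254, 220 and 257 CPM with THZ1. ACLY fell by 0.66 on the log2 scale (standard error 0.07, adjusted p = 3.4e-10 by edgeR). ACAT2, the cytosolic thiolase that joins acetyl-CoA units, fell by 0.77, from 131 ± 15.5 to 77.0 ± 5.04 CPM, and genes on the opposite strand, chiefly TCP1, cover 22.2% of its exonic bases. ACSS2, which makes acetyl-CoA from acetate, was low, with 10.8, 13.2 and 16.0 CPM with DMSO and 9.21, 9.55 and 6.68 CPM with THZ1, and fell by 0.65 (adjusted p = 0.001 by edgeR). The size of its fall varied, from −1.41 to −0.46 on the log2 scale under the alternatives run. In the deposited FPKM values ACSS2 went from 7.91 ± 1.42 with DMSO to 2.94 ± 0.618 with THZ1.

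The fatty acid genes split into 2 that rose (40%) and 3 that fell (60%). Of protein-coding genes with a mean of 10 or more CPM, 33.2% were higher and 52.6% lower, which is near these shares. SCD, which puts the first double bond into saturated fatty acids, lies on chromosome 10 from 102106990 to 102124583. SCD had 158, 179.5 and 147 CPM with DMSO and 447, 423 and 438 CPM with THZ1, so every THZ1-treated library held more than 2 times the level of every DMSO-treated one. It rose 2.701-fold (log2 fold change 1.43, standard error 0.07, adjusted p = 7.1e-18 by edgeR), and its log2 fold change lay between 1.18 and 1.63 under the alternatives run. FASN, the fatty acid synthase, on chromosome 17 from 80036214 to 80056170, had 442, 431 and 397 CPM with DMSO and 613, 647 and 595 CPM with THZ1. FASN rose 1.46-fold (log2 fold change 0.55, standard error 0.07, adjusted p = 9.3e-09 by edgeR), and was higher under every alternative run, from 0.30 to 0.74 on the log2 scale.

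ELOVL6, which lengthens palmitate, and FADS1 and FADS2, which desaturate polyunsaturated fatty acids, were lower. ELOVL6 had 52.6, 57.0 and 53.1 CPM with DMSO and 24.5, 29.9 and 30.1 CPM with THZ1 (log2 fold change −0.95). On chromosome 11, FADS1 (from 61567099 to 61596790) lies within the annotated span of FADS2 (from 61560452 to 61634826) in opposite orientation, and the genes overlap on opposite strands in 4.79% and 4.64% of their exonic bases. FADS2 had 236, 214 and 229 CPM with DMSO and 98.4, 103 and 99.6 CPM with THZ1, and fell 2.26-fold (log2 fold change −1.18, standard error 0.07, adjusted p = 5.5e-16 by edgeR). FADS1 fell with it, by 0.95 on the log2 scale (adjusted p = 8.8e-13 by edgeR), from 137 ± 6.40 to 71.1 ± 5.003 CPM. The opposite movement of the desaturases was plain in ratios within a library, with 0.669, 0.838 and 0.640 SCD counts for each FADS2 count with DMSO and 4.54, 4.11 and 4.40 with THZ1. FASN counts for each ACLY count went from 1.13, 1.10 and 1.06 to 2.42, 2.95 and 2.31. These ratios within a library, like those above, were chosen after the values were seen and were not tested.

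**Figure D3:**
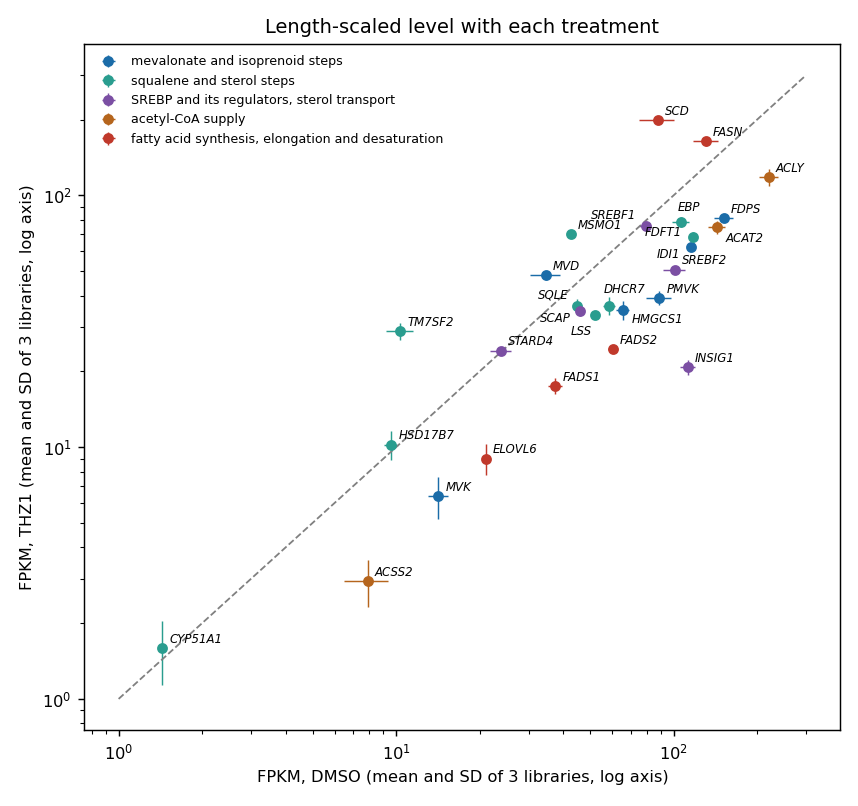
Level per transcript length (FPKM) with DMSO (x axis) against THZ1 (y axis), both on log axes, for the 28 genes in the FPKM table, with the mean and SD of 3 libraries and a dashed line where both are equal. SCD, MSMO1, MVD and TM7SF2 lie furthest above the line, and INSIG1 and ACSS2 lie below it by the greatest ratio. By counts, ACSS2 fell only 1.57-fold, less than FADS2 at 2.26-fold.

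Levels can be compared between genes only per length, in the deposited FPKM values (fragments scaled by transcript length and library size), which hold 28 of the 31 genes. NSDHL, SC5D and INSIG2 were matched in the count table only. With DMSO, ACLY was highest at 220.0 ± 17.2 FPKM, followed by FDPS at 152 ± 11.8, ACAT2 at 143 ± 10.2 and FASN at 131 ± 13.5. FDPS, ACAT2 and FASN followed each other within about 1 SD and cannot be ordered. With THZ1, SCD was highest at 199 ± 3.53 FPKM, up from 87.8 ± 12.6 FPKM and the place 11 of 28, and FASN was next at 164 ± 6.55 FPKM. INSIG1 went from place 7, at 112.5 ± 6.73 FPKM, to place 22, at 20.7 ± 1.40 FPKM. MSMO1 went from place 19 to place 8, while SQLE, at about the same FPKM with DMSO, went from place 18 to place 14. The lowest of the genes with each treatment was CYP51A1. The deposited values had nearly the same distribution in all libraries of a treatment, and its part in these SDs was not tested.

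Summed over the 31 genes, the pathway took 0.393% to 0.403% of all counts with DMSO and 0.286% to 0.289% with THZ1. After TMM scaling the sums were 3638.4 to 3702.1 CPM and 3126.9 to 3159.1 CPM, a smaller gap, since the TMM factors were above 1 for every DMSO-treated library and below 1 for every THZ1-treated library. Across the 31 genes, Spearman's rho between the genomic span of a gene and its log2 fold change was −0.26, against −0.34 across the 11929 protein-coding genes tested. These correlations are across genes of the same libraries, which are not independent, and are given as a description.

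Other genes around the pathway were read from lists written from general knowledge. The 128 tested genes of the 10 lists held 83 lower and 24 higher, with a median log2 fold change of −0.55. The share of lower genes was thus 64.8%, beside 71.0% of the 31 synthesis genes and 41.1% of all genes tested. Among protein-coding genes with a mean of 10 or more CPM it was 52.6%. Of the 13 genes that process and degrade SREBPs, 6 were lower, 6 higher (46.2% each) and 1 not called. These shares were near those of all genes tested, 41.1% lower and 43.5% higher. They were further from those of the protein-coding genes named above, 52.6% lower and 33.2% higher. In that list MBTPS2, the protease that makes the second cut in SREBPs, was lowest, falling from 9.81 ± 0.709 to 2.98 ± 1.36 CPM (log2 fold change −1.73, adjusted p = 4.7e-08 by edgeR), and GSK3B, a kinase that marks nuclear SREBP for degradation, was highest, at 1.21. MBTPS1, the protease of the first cut, was at −1.21, and was named after its value was seen. Of 8 genes for cofactors at SREBP-bound promoters, 4 were higher (50%) and 3 lower (37.5%). This was also near the shares of all genes tested, and further from those of the same protein-coding genes. The subunits of NF-Y differed, with NFYA highest at 1.11 and NFYB lowest at −0.62.

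Downstream of farnesyl diphosphate, 11 of 17 genes for protein prenylation, ubiquinone and dolichol were lower (64.7%) and 3 were higher. Among protein-coding genes with a mean of 10 or more CPM, 52.6% were lower. DOLK, the dolichol kinase, rose from 6.64 ± 0.122 to 40.4 ± 1.71 CPM (log2 fold change 2.60), and SRD5A3, which makes dolichol from polyprenol, was lowest at −2.002 but held only 3.27 CPM with DMSO. Partners of sterol synthesis were lower in 6 of 8 (75%) and higher in none. The called genes ranged from TMEM97, a sterol-regulated membrane protein, at −1.96 to LBR at −0.48. Among 18 genes of cholesterol storage, traffic and efflux, 12 were lower (66.7%) and 3 higher. SCARB1, the HDL receptor, fell from 156 ± 4.13 to 24.3 ± 2.704 CPM (log2 fold change −2.68, adjusted p = 1.2e-22 by edgeR), while MYLIP, a ubiquitin ligase that removes lipoprotein receptors, rose from 12.9 ± 1.57 to 63.6 ± 5.69 CPM (log2 fold change 2.31, adjusted p = 1.2e-18 by edgeR).

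Suppliers of citrate, NADPH and malonyl-CoA were lower in 7 of 8 tested genes (87.5%) and higher in none. Among protein-coding genes with a mean of 10 or more CPM, 52.6% were lower. ACACB, the mitochondrial acetyl-CoA carboxylase, was lowest of the suppliers at −1.44. Other elongation and desaturation enzymes were lower in 8 of 10 (80%) and higher in 1. SCD5, the paralog of SCD, was the lowest of them, and fell from 20.8 ± 1.11 to 3.65 ± 1.12 CPM (log2 fold change −2.52, adjusted p = 3.5e-14 by edgeR), whereas ELOVL1 was the highest, at 0.69. Of 18 genes that activate fatty acids or build glycerolipids, 11 were lower (61.1%) and 2 higher. AGPAT3, an acyltransferase of phospholipid synthesis, was lowest at −1.78, and DGAT1, which makes triglycerides, was highest at 1.14.

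**Figure D4:**
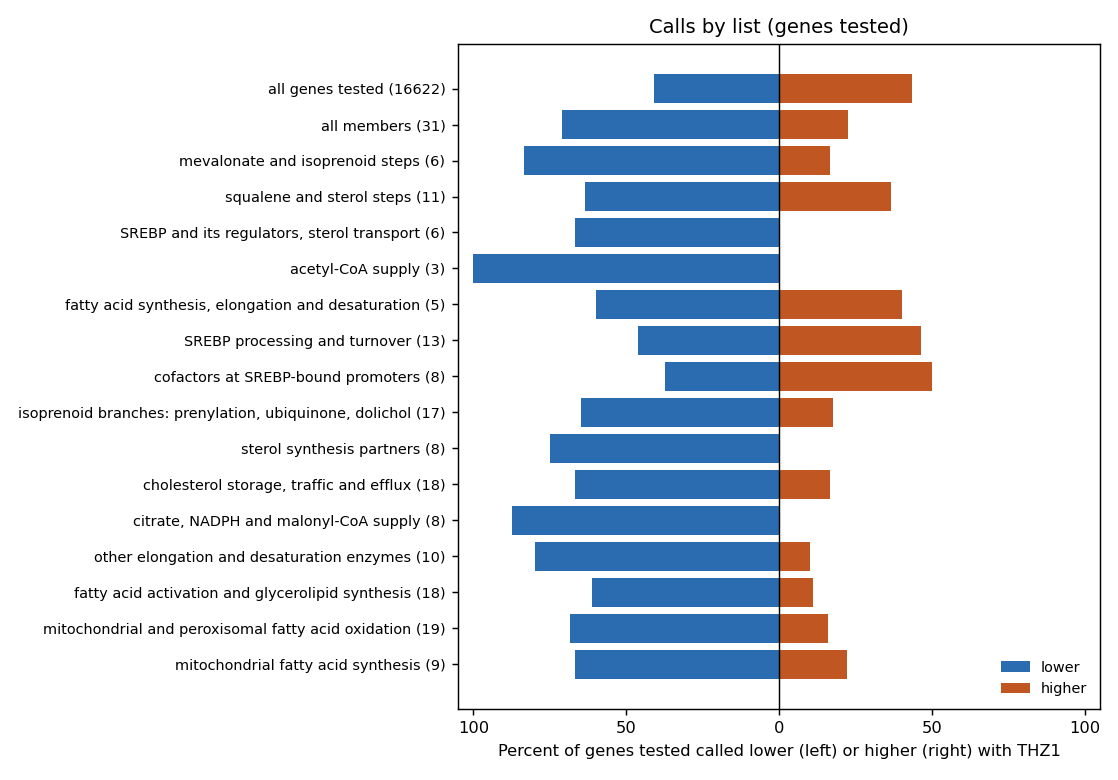
Percent of tested genes called lower (left) or higher (right) with THZ1 at an adjusted p-value below 0.05, for all genes tested, the 31 synthesis genes ("all members"), their 5 groups and the 10 lists of related genes, with the number tested in brackets. Lower calls make up 71.0% of the synthesis genes against 41.1% of all genes, and 52.6% of protein-coding genes with a mean of 10 or more CPM (not drawn). Most related lists lean the same way, whereas the lists of SREBP processing and of cofactors are near the shares of all genes. Among those protein-coding genes 33.2% were higher, a smaller share than in either list.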

How the data were processed

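RNA-seq libraries of NALM6 cells were compared, 3 treated with DMSO and 3 with THZ1, grouped by the sample titles. Per the paper's methods and the submitters' processing notes, the authors filtered the reads, mapped them to GRCh37 with STAR and deposited raw counts per gene from htseq-count. The annotation and strand setting are not given in the sources used here. The authors also deposited FPKM values, calculated according to RSEM, on a log2 scale, which were read as log2(FPKM + 1), and columns of their own fold changes, p-values and FDR, which were not used. Sorted log2 values of libraries of one treatment differed by a median of at most 0.0017, and how this came about is not given in the sources used here. The design was written for FPKM on a linear scale.

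Members and lists were chosen with earlier results of these data known, and all 31 matched members are named, with the highest and lowest called gene of each other list, except 1 that is not reported here. Of these members, 28 were matched by the symbols of the FPKM table and 3 by GENCODE 44 mapped to GRCh37, which also gave coordinates. Genes were kept by filterByExpr at a minimum count of 10 and a minimum total of 15. Libraries were then normalised with TMM factors, and the two-sided quasi-likelihood test of edgeR was applied, with Benjamini-Hochberg adjustment over 16622 genes. Standard errors are the size of the log2 change divided by the root of F, and CPM are given as mean ± SD of 3 libraries. No pair of replicates agreed within sampling noise (chi-square per gene 1.77 to 8.35), so each library counts as 1. Promoter sequences are from RefSeq (GRCh38.p14), whose coordinates were not mixed with those of GRCh37.

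As alternatives, scaling was done by RLE, by upper quartile factors or by library size only, and DESeq2, other filters, a replicate block, each library left out, and limma on the FPKM values with a pseudocount of 1 or 0.1 were tried. The scripts were first tested on simulated data. Versions were DESeq2 1.42.0, edgeR 4.0.16 and limma 3.58.1 under R 4.3.3, with pandas 2.3.3 for Python 3.11.15.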

Additional observations from a re-analysis of the deposited data

How the results depend on the processing

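Of the 31 genes, 24 kept both their direction and their side of the threshold under all alternatives run, and 29 kept their direction. The log2 fold change of SREBF1 was −0.16 with library sizes alone, −0.00354 with no filter, and by limma on FPKM −0.0704 with a pseudocount of 1, with or without the filter (which removed no gene), and −0.0712 with 0.1. The log2 fold change of STARD4 was −0.11 with library sizes alone. The median log2 fold change of the genes, −0.65, was −0.46 with upper quartile factors, −0.90 with library sizes alone, −0.52 when each library had to hold 10 counts and −0.74 with no filter. The median over all shared genes moved by 0.19, −0.25, 0.13 and −0.09 under the same settings, and by −0.34 in the FPKM values. Higher calls made up 51.4% of all calls, 57.2% with upper quartile factors and 44.2% with library sizes alone. At a log2 fold change of 1.5, RLE factors, upper quartile factors, DESeq2 and the minimum of 10 counts each gave 3 higher genes, SCD being added, library sizes alone gave 1 higher gene (CYP51A1) and 2 lower (INSIG1 and NSDHL), no filter gave 2 lower, and the FPKM values gave 0 higher by limma, where 5 of 28 genes were higher at any fold. With each library left out in turn, 7 to 8 genes were higher, 21 to 22 lower, 2 higher and 1 to 2 lower by 1.5, and the median stayed between −0.70 and −0.61. SQLE lost its call without THZ1 replicate 1, and STARD4 gained one without DMSO replicate 2. The cause of these changes was not tested.

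No pairing of libraries by replicate number was seen or is stated in the sources used here. Deviations of same-numbered libraries correlated at −0.0040, 0.00097 and 0.0206, and 2 of 6 libraries correlated best with their own number. With 3 libraries per treatment, these values cannot show that the libraries were unpaired. A replicate block changed no call among the 31 genes, with 7 higher, 22 lower and a median of −0.64, and over all genes 43.2% were higher and 40.8% lower. Counts were fewest for CYP51A1, with 11 to 32 in a library. The parts of depth and of exons shared with other genes in this were not tested.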

Other observations

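Transcripts of fatty acid breakdown were also mostly lower, and breakdown itself was not measured here. Of 19 genes of mitochondrial and peroxisomal fatty acid oxidation, 13 were lower and 3 higher with THZ1, with a median log2 fold change of −0.77 (edgeR, adjusted p-value below 0.05). The median was 0.03 over all genes tested and −0.28 over protein-coding genes with a mean of 10 or more CPM. HADH, a dehydrogenase of the beta-oxidation spiral, had the lowest value, −3.14 (standard error 0.11), and fell from 92.9 ± 5.58 to 10.5 ± 1.77 CPM (SD, n = 3 libraries each). ACADVL, which starts the oxidation of very long chains, had the highest, 0.82, and rose from 196 ± 17.1 to 347 ± 9.17 CPM. The share of lower genes was 68.4%, beside 71.0% of the synthesis genes, 41.1% of all genes tested and 52.6% of those protein-coding genes, and the differences between these shares were not tested.

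Mitochondria hold a separate fatty acid synthesis that feeds lipoic acid. Of its 9 genes, 6 were lower (66.7%, beside 52.6% of protein-coding genes with a mean of 10 or more CPM) and 2 higher. LIAS, lipoic acid synthase, was lowest at −1.60 and fell from 24.1 ± 0.916 to 7.93 ± 1.46 CPM, while HSD17B8, a subunit of its ketoacyl reductase, was highest at 1.76 and rose from 12.9 ± 2.11 to 43.5 ± 1.45 CPM.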
